A study of Mus musculus with 9 samples.

Results

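The genes described here are 10 genes of lung surfactant and of the alveolar type 2 cell, the cell that makes it: Sftpa1, Sftpb, Sftpc, Sftpd, Abca3, Lamp3, Napsa, Slc34a2, Etv5 and Lpcat1. They were chosen by name, as the rows of the table whose Ensembl identifier maps to these symbols. All 10 were found among the 57010 genes of the table, and all 10 were among the 15487 genes that reached at least 1 TPM in at least 3 libraries and were tested. The samples were whole lung tissue of 9 C57BL/6J mice in 3 groups of 3. The CuO group received 1 intratracheal instillation of copper oxide nanoparticles, 100 µl of a suspension at 2 mg/mL in sterile saline. The CuO_TTM group received the same instillation and had TTM at 0.02 mg/mL in its daily drinking water; the labels do not spell out this abbreviation. The control group received 100 µl of sterile saline by itself. All mice were killed on day 7, and each library came from a different mouse. No group received TTM without particles, so the effect of TTM alone cannot be told apart from its effect on exposed lungs. Sex and age are not given in the sources used here.

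Surfactant is a film of phospholipid and protein that lowers surface tension in the alveoli and keeps them from collapsing. Alveolar type 2 cells assemble it in lamellar bodies, lysosome-related organelles that carry the lipid with the small hydrophobic proteins SP-B and SP-C, and release it into the airspace, where alveolar macrophages and the type 2 cells clear it. The larger collectins SP-A and SP-D bind microbes and particles and are also made by club cells of the airways, as is SP-B. Type 2 cells are moreover the progenitors of the flat alveolar type 1 cells, and in injured mouse lungs they pass through a transitional, Krt8-high state.

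The 4 surfactant protein genes together held 4.62% to 6.09% of all TPM in the control libraries. They held 8.54%, 3.48% and 6.37% in CuO replicates 1, 2 and 3, and 2.20%, 5.43% and 7.01% in CuO_TTM replicates 1, 2 and 3. The exposed libraries thus lay on both sides of the controls, and the lowest and the highest of all 9 were both from exposed mice. Sftpc, which encodes the type 2 cell's own hydrophobic protein SP-C, ranked among the 3 most abundant genes in each of the 9 libraries, so the labelled tissue carried its defining type 2 marker in every sample. Of the other members, Abca3 and Etv5 were the least abundant per length, at 13.7 to 101 TPM and 19.0 to 79.0 TPM.

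Promoter sequence is shown for the 4 of the 7 members with an entry in the RefSeq table (build GRCm38.p6) that held a searched motif. Whether the motifs bear on the members' levels was not tested. Each is the 250 bases before the RefSeq start, 5′ to 3′ on the gene's strand, with the motif in capitals. Motifs were searched on both strands: CTCAAG, a core recognised by NKX2-1, TGTTTAC, recognised by forkhead factors, and CCGGAAG, recognised by ETS factors. Sftpa1 lies on the plus strand at chr14:41131538-41131787 and holds CTCAAG 166 bases before the start. Sftpb lies on the plus strand at chr6:72304360-72304609 and holds it 100 and 15 bases before the start. Lamp3 lies on the minus strand at chr16:19706366-19706615 and holds TGTTTAC 92 bases before the start. Etv5 lies on the minus strand at chr16:22439571-22439820 and holds the reverse complement, GTAAACA, 183 bases before the outer of its 2 listed starts; the window of its inner start holds none of the motifs.
Sftpa1: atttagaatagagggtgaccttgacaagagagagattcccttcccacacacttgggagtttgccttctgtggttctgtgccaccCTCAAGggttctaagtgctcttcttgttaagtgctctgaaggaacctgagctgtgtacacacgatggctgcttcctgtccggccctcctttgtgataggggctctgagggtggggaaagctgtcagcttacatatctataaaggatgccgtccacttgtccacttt
Sftpb: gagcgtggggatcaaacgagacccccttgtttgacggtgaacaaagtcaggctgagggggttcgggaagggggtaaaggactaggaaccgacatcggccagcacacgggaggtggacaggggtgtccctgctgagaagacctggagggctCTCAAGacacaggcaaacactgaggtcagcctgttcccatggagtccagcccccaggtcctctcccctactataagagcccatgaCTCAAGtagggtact
Lamp3: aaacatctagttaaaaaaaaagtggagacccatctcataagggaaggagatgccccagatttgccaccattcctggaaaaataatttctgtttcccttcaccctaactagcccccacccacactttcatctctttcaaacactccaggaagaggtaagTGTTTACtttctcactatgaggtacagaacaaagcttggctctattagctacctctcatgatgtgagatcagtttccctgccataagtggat
Etv5: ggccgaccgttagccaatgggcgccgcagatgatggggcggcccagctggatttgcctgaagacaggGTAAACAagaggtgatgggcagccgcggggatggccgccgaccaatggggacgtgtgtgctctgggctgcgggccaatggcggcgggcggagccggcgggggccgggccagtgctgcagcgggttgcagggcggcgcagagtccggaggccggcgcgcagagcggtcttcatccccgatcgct

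CTCAAG stood in windows of 2 of the 7 members and in 13.3% of 32841 RefSeq promoter windows of this length. TGTTTAC stood in those of 2 of 7 members and in 3.17% of all windows. CCGGAAG stood in those of 0 of 7 members and in 6.91% of all windows. The windows of Abca3, Slc34a2 and Lpcat1 held none of the 3 motifs, which says only that these letters are not in those windows.

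A pair of exposed libraries stood apart from the others of their groups. The log2 values of CuO replicate 1 had correlations of 0.864 to 0.901 with those of the remaining libraries, whose own pairs had 0.883 to 0.973. Its median gene lay 0.53 below that gene's mean over all libraries on the log2 scale. CuO_TTM replicate 1 held 8.17% of its TPM in Scgb1a1, the club cell secretory protein gene, against 0.180% and 0.353% in CuO_TTM replicates 2 and 3. The control libraries held 17.3% to 22.5% in this gene and the CuO libraries 6.90% to 12.3%. In whole tissue, fewer cells of a type and less RNA per cell cannot be told apart. Each difference below is given on the scale of log2(TPM + 1) as the first group minus the second, and was tested with limma on all 9 libraries and adjusted by Benjamini and Hochberg over all tested genes at 0.05.

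**Figure D1:**
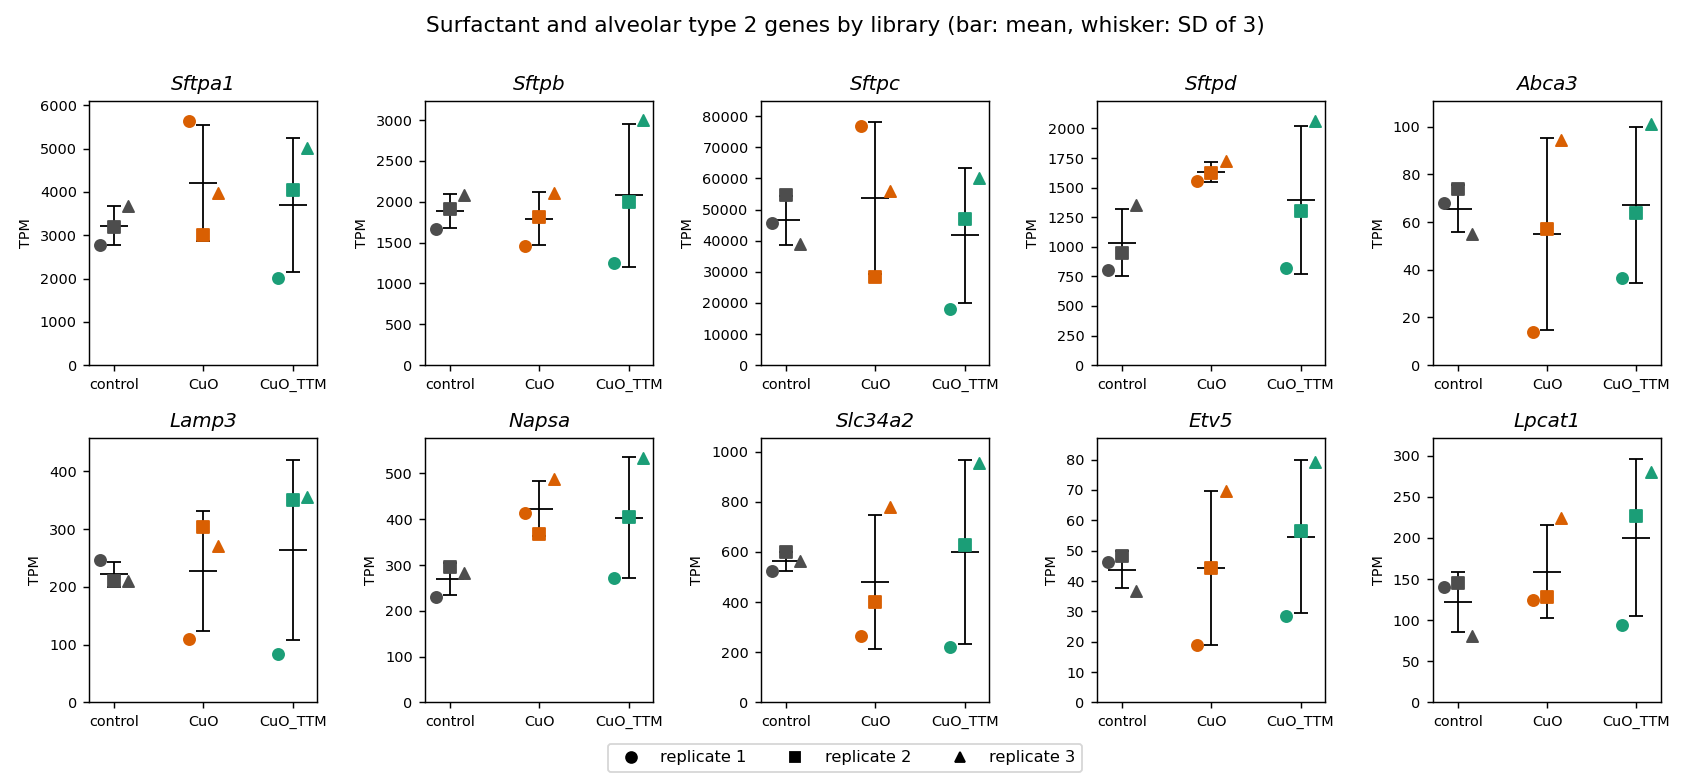
Abundance of the 10 members in each of the 9 libraries, in TPM, with 1 panel per gene. Points are libraries, distinguished by replicate, and short lines mark the group means. Sftpd and Napsa are the panels in which all CuO points lie above all control points.

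None of the 10 members passed the threshold in any comparison. With CuO against control this was 0 of 10 beside 0% of all tested genes, and 1 member, Napsa, had an unadjusted limma p under 0.05, beside 7.95% of all genes. With CuO_TTM against CuO it was 0 of 10 beside 0.71% of all genes, and with CuO_TTM against control 0 of 10 beside 1.9%. In neither of these comparisons did a member reach an unadjusted limma p under 0.05, where 7.75% and 18% of all genes did. With both exposed groups against control it was again 0 of 10 beside 0.349%, and Napsa had an unadjusted limma p under 0.05, beside 14.7%. With the F test of any difference it was 0 of 10 beside 1.2%, with 0 members at an unadjusted p under 0.05, beside 13.8%. The median difference over the members was 0.01 for CuO against control, where that over all tested genes was 0.03. It was 0.10 for CuO_TTM against CuO and 0.08 for CuO_TTM against control, where those over all genes were 0.19 and 0.24. The 3 comparisons share libraries. Weighting the libraries was the alternative that gave calls among the members, namely Sftpd, Napsa and Lpcat1 in CuO_TTM against control, and with it 49.5% of all tested genes were called in that comparison.

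Sftpc (ENSMUSG00000022097) stood at 45711, 54795 and 39066 TPM in control replicates 1, 2 and 3, at 76791, 28381 and 55935 TPM in the CuO replicates and at 17957, 46991 and 60051 TPM in the CuO_TTM replicates. The exposed groups overlapped the controls on both sides, with CuO replicate 1 the highest library and CuO_TTM replicate 1 the lowest. Group means were 46524 ± 7896 TPM in control, 53702 ± 24283 in CuO and 41666 ± 21546 in CuO_TTM (SD, n = 3 in each). The log2 difference of CuO from control was 0.11 with a 95% interval of -1.02 to 1.23, and limma's adjusted p was 0.996. Without CuO replicate 1 it turned to -0.21. CuO_TTM differed from CuO by -0.42 (limma adjusted p = 0.886) and from control by -0.32 (limma adjusted p = 0.796).

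Sftpb (ENSMUSG00000056370) encodes SP-B, the other hydrophobic protein, without which mice and infants cannot breathe after birth. It stood at 1670, 1913 and 2080 TPM in the controls, 1457, 1813 and 2105 TPM in CuO and 1244, 1992 and 2995 TPM in CuO_TTM. The CuO values enclosed those of the controls, and the CuO_TTM libraries spread further both ways. The difference from control was -0.09 in CuO (95% interval -0.82 to 0.65) and 0.05 in CuO_TTM (95% interval -0.68 to 0.78), with limma adjusted p = 0.996 and 0.958. Without CuO replicate 1 the first of them was 0.06.

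Of the collectin genes, Sftpa1 (ENSMUSG00000021789), which encodes SP-A, stood at 2781, 3197 and 3684 TPM in the controls, 5637, 2996 and 3964 TPM in CuO and 2003, 4048 and 5025 TPM in CuO_TTM. As with Sftpc, the highest library was CuO replicate 1 and the lowest CuO_TTM replicate 1. CuO differed from control by 0.34 ± 0.37 (SE) and CuO_TTM differed from CuO by -0.24 ± 0.37, with limma adjusted p = 0.972 and 0.907. The first was 0.11 without CuO replicate 1 and 0.56 without CuO replicate 2. Sftpd (ENSMUSG00000021795), which encodes SP-D, stood at 806, 946 and 1355 TPM in the controls, 1556, 1621 and 1723 TPM in CuO and 822, 1299 and 2064 TPM in CuO_TTM. All 3 CuO libraries lay above all 3 controls, while CuO_TTM replicates 1 and 2 lay within the controls' range. The CuO values of Sftpd were close to one another, their highest being 1.11 times their lowest. Its mean was 1036 ± 285 TPM in control and 1633 ± 83.8 TPM in CuO (SD, n = 3 in each), a difference of 0.69 ± 0.34 (SE) with a 95% interval of -0.08 to 1.46. This did not pass the threshold (limma adjusted p = 0.682). CuO_TTM differed in Sftpd from control by 0.36 and from CuO by -0.33, with limma adjusted p = 0.627 and 0.883.

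Napsa (ENSMUSG00000002204) encodes napsin A, an aspartic protease that takes part in cutting the SP-B and SP-C precursors in the type 2 cell. It stood at 229, 296 and 283 TPM in the controls, 413, 368 and 487 TPM in CuO and 272, 404 and 535 TPM in CuO_TTM. All CuO libraries again lay above all controls, and CuO_TTM replicate 1 was the single exposed library within the controls' range. The mean was 269.7 ± 35.4 TPM in control, 423 ± 60.2 TPM in CuO and 404 ± 131 TPM in CuO_TTM (SD, n = 3 in each). Napsa differed by 0.65 ± 0.28 (SE) between CuO and control, with a 95% interval of 0.02 to 1.27 and a limma adjusted p of 0.612. Taking both exposed groups against control gave 0.59 for Napsa (limma adjusted p = 0.307) and 0.53 for Sftpd (limma adjusted p = 0.451). Sftpd and Napsa were 2 of 10 members whose CuO libraries were all above the controls, beside 9.37% of all tested genes. No member had all CuO libraries below the controls, beside 3.53% of all genes. In the other comparisons the groups overlapped for 10 of 10 members. Among all genes, 31% had every CuO_TTM library above every control and 5.73% below, while 9.78% had every CuO_TTM library above every CuO library and 2% below. For Sftpd and Napsa the difference of CuO from control kept its sign in every alternative run, from 0.40 to 0.90 for Sftpd and from 0.38 to 0.74 for Napsa.

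**Figure D2:**
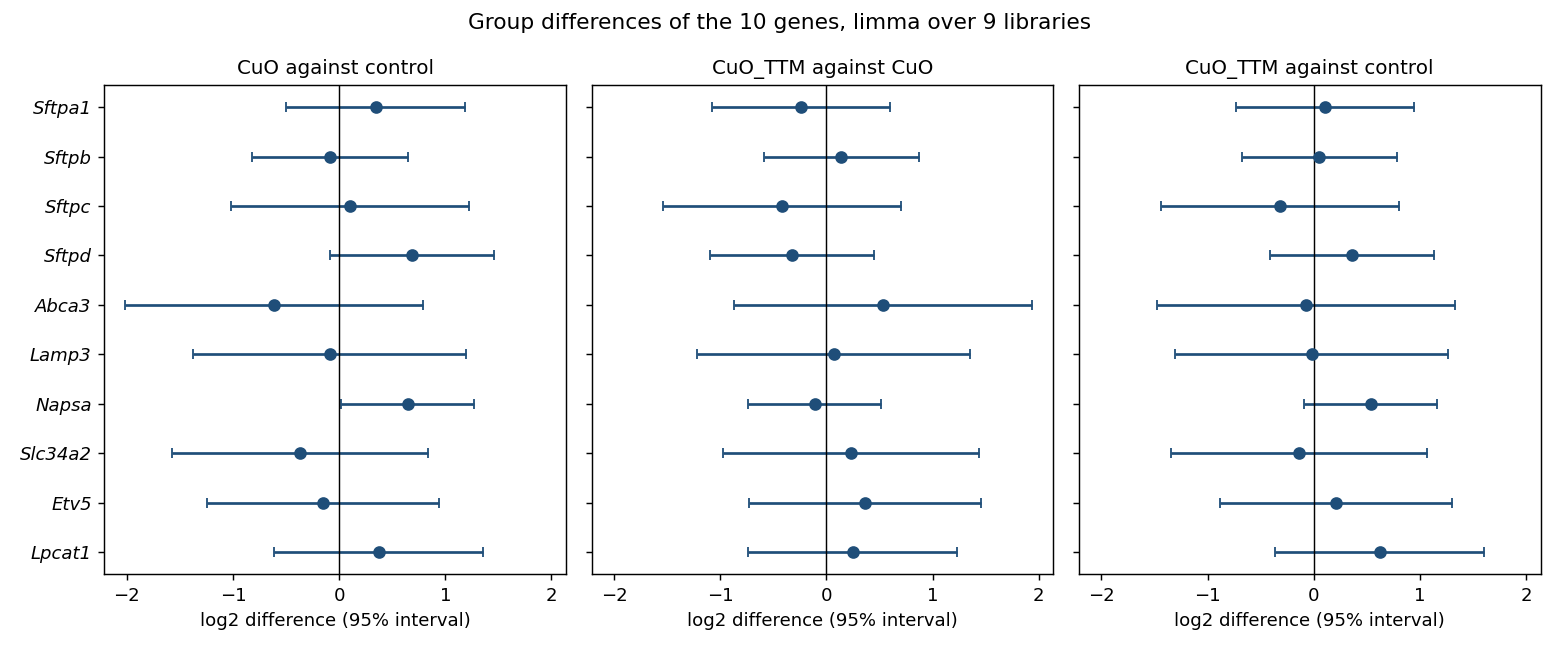
Differences of the 10 members in the 3 pairwise comparisons on the log2(TPM + 1) scale, as points with 95% limma intervals. The intervals cross 0 except that of Napsa for CuO against control, whose adjusted p is 0.612.

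The lamellar body genes showed wider spreads. Abca3 (ENSMUSG00000024130) encodes the transporter that moves phospholipid into the lamellar body. It stood at 68.0, 73.9 and 55.0 TPM in the controls, 13.7, 57.2 and 94.3 TPM in CuO and 36.4, 63.6 and 101 TPM in CuO_TTM. CuO replicate 1 was the lowest of the 9 libraries, and the ratio of highest to lowest library within CuO was 6.89, the widest of the members. The difference of CuO from control was -0.61 ± 0.63 (SE; limma adjusted p = 0.962), and without CuO replicate 1 it was 0.17. For CuO_TTM against control it was -0.08, with a 95% interval of -1.48 to 1.33.

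Lamp3 (ENSMUSG00000041247), whose product DC-LAMP lies in the lamellar body membrane and is also made by mature dendritic cells, stood at 247, 209.5 and 209.6 TPM in the controls, 109.8, 304 and 270.4 TPM in CuO and 83.3, 351 and 356 TPM in CuO_TTM. The controls were close together, and replicate 1 of each exposed group was below all of them while replicates 2 and 3 of each were above all of them. Group means were therefore near one another, with a difference from control of -0.09 in CuO and of -0.02 in CuO_TTM (limma adjusted p = 0.996 and 0.993). The share of variance lying between the 3 groups was 0.297% for Lamp3, the lowest of the members, against 53% for Napsa and 37.7% for Sftpd.

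Slc34a2 (ENSMUSG00000029188) encodes the phosphate transporter that takes phosphate back up from the airspace after surfactant phospholipid is broken down. It stood at 524, 599 and 566 TPM in the controls, 263, 400.1 and 780.3 TPM in CuO and 221, 627 and 952 TPM in CuO_TTM. The controls differed by a factor of 1.14 from highest to lowest, and all 9 libraries by 4.30. CuO differed from control by -0.37 ± 0.54 (SE) and CuO_TTM by -0.14 ± 0.54, with limma adjusted p = 0.99 and 0.927. The first was -0.0076 without CuO replicate 1 and -0.79 without CuO replicate 3. Lpcat1 (ENSMUSG00000021608) encodes the acyltransferase that makes the dipalmitoyl phosphatidylcholine of surfactant. Its values were 140.0, 146 and 80.6 TPM in the controls, 124, 129 and 224 TPM in CuO and 94.8, 226 and 279.9 TPM in CuO_TTM. CuO_TTM replicates 2 and 3 were above all controls and replicate 1 was between them, so the groups overlapped. Lpcat1 differed by 0.62 ± 0.44 (SE) between CuO_TTM and control, and its 95% interval was -0.36 to 1.60 (limma adjusted p = 0.504). It was 0.31 without CuO_TTM replicate 3 and 1.09 without CuO_TTM replicate 1.

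Etv5 (ENSMUSG00000013089), an ETS transcription factor that maintains the type 2 cell state in mice, stood at 46.1, 48.2 and 36.7 TPM in the controls, 18.9, 44.4 and 69.5 TPM in CuO and 28.6, 56.4 and 79.0 TPM in CuO_TTM. Replicate 1 was below all controls in each exposed group and replicate 3 above them all. CuO differed from control by -0.15, CuO_TTM from CuO by 0.36 and CuO_TTM from control by 0.21, with limma adjusted p = 0.995, 0.898 and 0.87. Without CuO replicate 1 the first was 0.35. The members below all controls in replicate 1 of both exposed groups were Sftpb, Abca3, Lamp3, Slc34a2 and Etv5. In CuO replicate 1, 5 members were below all controls, beside 58.7% of all tested genes. In CuO_TTM replicate 1, 7 members were, beside 29.2%. No searched motif is common to the promoter windows of the 5 genes.

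Most of the members' variance lay between libraries of a group, except in Napsa, and not between the groups. The mean deviation of the 10 members from the control mean was -0.05, 0.10 and -0.05 on the log2 scale in control replicates 1, 2 and 3. It was -0.29, 0.02 and 0.53 in the CuO replicates and -0.74, 0.35 and 0.79 in the CuO_TTM replicates. CuO_TTM replicate 1 was below both other CuO_TTM libraries for 10 of 10 members, as it was for 57.4% of all tested genes. It was the lowest of the 9 libraries for 5 members, Sftpa1, Sftpb, Sftpc, Lamp3 and Slc34a2, beside 8.46% of all genes. CuO_TTM replicate 3 was the highest of the 9 for 8 members, beside 19.6% of all genes, and it was above all controls for 10 of 10, beside 61.5% of all genes. CuO replicate 3 was also above all controls for 10 of 10, beside 56.2% of all genes. Across the members, a median of 10.2% of the variance lay between the groups, and across all tested genes 26.7%. Without CuO_TTM replicate 1, the differences of CuO_TTM from control were above 0 for 10 of 10 members, from 0.21 for Sftpc to 0.79 for Napsa and 1.09 for Lpcat1, with limma adjusted p values of 0.196 or more. The median difference of all genes without that library was 0.33. As replicate 1 was the lowest of its group for each member, leaving it out had to raise every difference. Without CuO_TTM replicate 3 instead, the difference was -0.67 for Sftpc, -0.59 for Slc34a2, -0.43 for Abca3 and -0.37 for Lamp3. Sftpb was at -0.26, Sftpa1 at -0.17 and Etv5 at -0.11, while Lpcat1 and Napsa were at 0.31 and Sftpd at 0.03. The median of all genes was then 0.18. Without CuO replicate 1, the differences of CuO from control ran from -0.21 for Sftpc to 0.72 for Sftpd, with Napsa at 0.66 and Lpcat1 at 0.52, and the lowest limma adjusted p was 0.265.

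**Figure D3:**
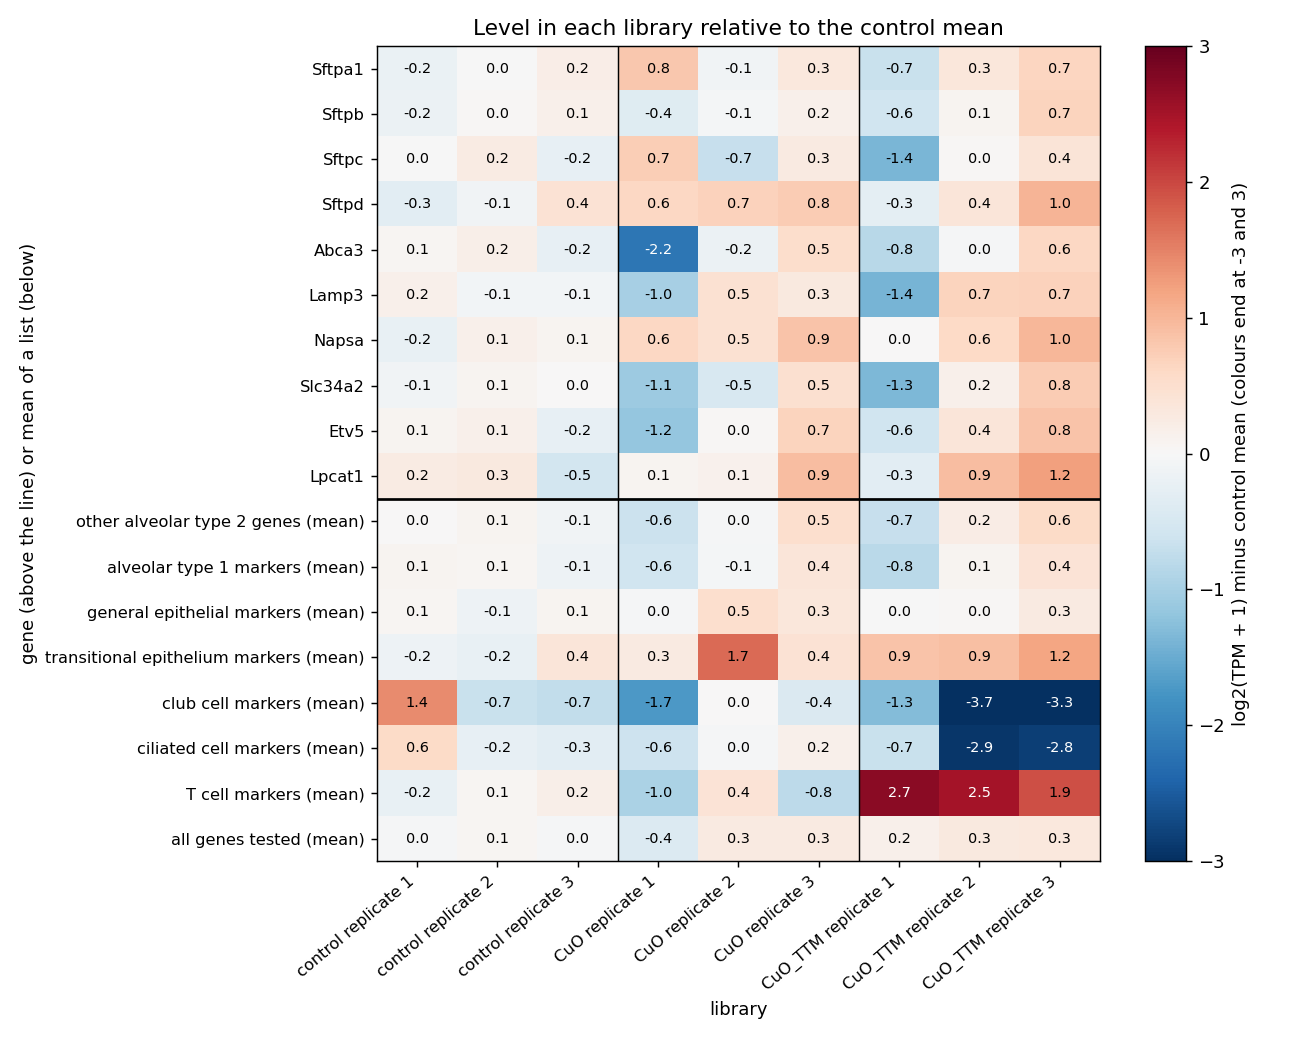
Deviation of each member from its control mean in each library, on the log2(TPM + 1) scale. In CuO_TTM replicate 1, 7 members lie below all controls, beside 29.2% of all genes. All 10 lie above them in CuO replicate 3 and CuO_TTM replicate 3, and the members part in CuO replicate 1.

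In CuO replicate 1 the members did not move together. Sftpc and Sftpa1 were higher there than the mean of CuO replicates 2 and 3, by 0.95 and 0.71 on the log2 scale. Abca3 differed from that mean by -2.34, Etv5 by -1.50, Lamp3 by -1.38 and Slc34a2 by -1.08. These are values of 1 library and carry no test. Sftpd and Napsa differed from it by -0.10 and -0.04. The order followed transcript length in part. In the annotation used, the transcript has 792 nt for Sftpc, 2854 nt for Sftpa1, 3975 nt for Etv5 and 6476 nt for Abca3. Sftpd, Sftpb and Napsa, of 1275, 1490 and 1560 nt, broke this order. They were shorter than Sftpa1 but lower against the mean of CuO replicates 2 and 3, Sftpb by -0.42 from that mean. Lpcat1 (3675 nt) and Slc34a2 (4176 nt) broke it too. They differed by -0.445 and -1.08, while the shorter Lamp3 (3356 nt) differed by -1.38. Over the 10 members, Spearman's correlation of transcript length with the deviation of CuO replicate 1 from the mean of all libraries was -0.806. Over the 15225 tested genes with a length it was -0.334 in that library, and 0.343 in CuO replicate 3. Genes of 1 library are not independent, and these correlations are descriptions of single libraries. The members' correlation was of the opposite sign and similar size in other libraries, at 0.830 in CuO_TTM replicate 3 and 0.697 in both CuO replicate 3 and control replicate 1. In CuO_TTM replicate 1 it was 0.09, and that over all genes -0.294. A gene's deviations from the mean of all libraries cancel out over the libraries, so these correlations depend on one another. A strong trend in 1 library by itself moves the others the opposite way. With the length trend removed from every library, 0 of 10 members were called in each comparison. As 0 were called before its removal too, this count cannot show the part of transcript length. The differences that changed sign with the trend removed are given further on. The part of transcript length in the members' values was not tested.

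**Figure D4:**
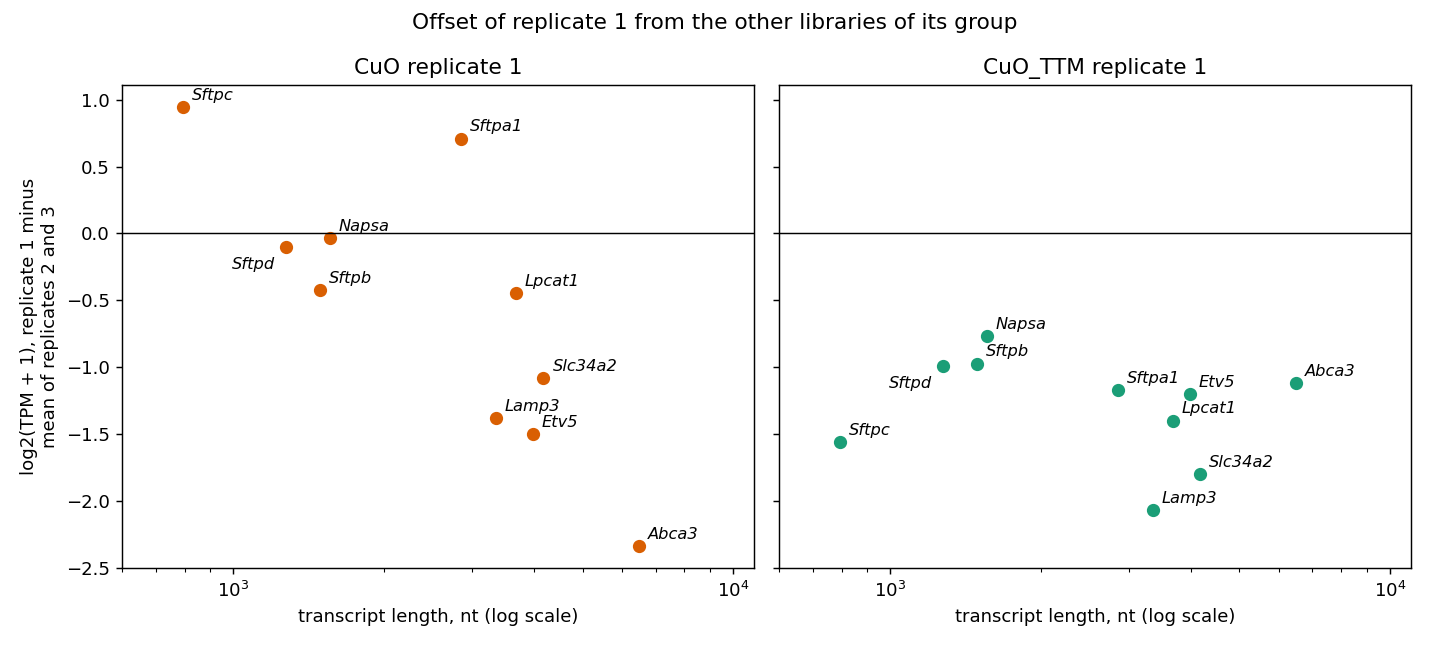
Difference of replicate 1 from the mean of replicates 2 and 3 of the same group for each member, on the log2(TPM + 1) scale, against transcript length in nt on a logarithmic axis, for CuO and for CuO_TTM. In CuO, Sftpc and Sftpa1 lie above 0 and Abca3 lowest; in CuO_TTM all 10 members lie below 0.

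Ratios within a library do not depend on how the library was scaled. They can still follow a library's transcript length trend, for which they were not corrected. Sftpc has 792 nt, and Sftpa1, Sftpb and Sftpd have 2854, 1490 and 1275 nt. Sftpa1 was 6.08%, 5.84% and 9.43% of Sftpc in the controls, 7.34%, 10.6% and 7.09% in CuO, and 11.2%, 8.62% and 8.37% in CuO_TTM. Sftpd was 1.76%, 1.73% and 3.47% of Sftpc in the controls, 2.03%, 5.71% and 3.08% in CuO, and 4.58%, 2.76% and 3.44% in CuO_TTM. Control replicate 3 was above the other controls in both ratios and lay among the exposed libraries. Of the 12 tests of a ratio of Sftpa1, Sftpb or Sftpd to Sftpc, the smallest p came from Sftpd to Sftpc with both exposed groups against control, a log2 ratio difference of 0.63. Its p was 0.143 by the exact two-sided permutation test of 84 arrangements, and 0.600 after Benjamini-Hochberg adjustment over the 12. An exact test of 3 against 3 libraries cannot go below 0.1, and none of those 9 went below 0.3.

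The rest of the type 2 program was read from lists of genes other than the members. Of 24 other alveolar type 2 genes 23 were tested, and 0 were called in each comparison. Their median difference from control was -0.06 in CuO and 0.12 in CuO_TTM. Per library their mean deviation from the controls was -0.64, -0.04 and 0.50 in CuO and -0.69, 0.22 and 0.58 in CuO_TTM, so that they were low and high in the same exposed libraries as the members. The gene of smallest F test p was Cbr2, a carbonyl reductase that club cells also make. It was at 2917, 2569 and 1540 TPM in the controls, 683, 1259 and 2037 TPM in CuO and 860.3, 433 and 577 TPM in CuO_TTM. All CuO_TTM libraries of Cbr2 were below all controls, and the difference of -1.91 ± 0.44 (SE) had a limma adjusted p of 0.0641. Ctsh, a protease of SP-B processing that other cells also make, was at 222, 309 and 553 TPM in the controls, 569, 1051 and 817 TPM in CuO and 579, 657 and 818 TPM in CuO_TTM. All 6 exposed libraries of Ctsh were above all controls, but the difference of 1.23 ± 0.36 (SE) for CuO against control had a limma adjusted p of 0.355. Among 16 transcription factors of the type 2 cell 15 were tested and 0 were called in each comparison. Nkx2-1, the lung lineage factor that drives the surfactant protein genes, was at 60.2, 61.1 and 65.1 TPM in the controls, 79.6, 65.5 and 76.3 TPM in CuO and 50.6, 70.2 and 75.2 TPM in CuO_TTM. It was above all controls in the 3 CuO libraries by a small margin, with a difference of 0.24 and a limma adjusted p of 0.943.

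Of 28 genes of surfactant lipid synthesis 27 were tested, and 1, Fabp5, was called. Fabp5 encodes a fatty acid binding protein that macrophages and keratinocytes also make. It was at 167, 165 and 134 TPM in the controls, 355, 474 and 471 TPM in CuO and 466, 691 and 515 TPM in CuO_TTM, with every exposed library above every control. It rose by 1.82 ± 0.24 (SE) in CuO_TTM against control (limma adjusted p = 0.0182). The limma adjusted p was 0.108 without CuO_TTM replicate 2, 0.0562 without CuO_TTM replicate 3, and 0.0972, 0.0969 and 0.0590 without control replicates 1, 2 and 3, so the call of Fabp5 needed each of these libraries. For CuO against control its difference was 1.47 (limma adjusted p = 0.133). The list's median difference from control was -0.13 in CuO and 0.21 in CuO_TTM. Of 24 genes of the lamellar body, processing and secretion all were tested and 0 were called in each comparison, with medians of -0.02 and 0.26. Among 13 genes of surfactant clearance by macrophages, Marco, a scavenger receptor that binds particles, was called. It stood at 5.31, 11.4 and 4.21 TPM in the controls, 0.68, 0.67 and 4.37 TPM in CuO and 11.6, 37.9 and 57.0 TPM in CuO_TTM, and rose by 3.63 ± 0.65 (SE) in CuO_TTM against CuO (limma adjusted p = 0.0425). Leaving out 1 library at a time gave Marco limma adjusted p values of 0.0210 to 0.195, and the call ended without any 1 control, CuO replicate 1 or 2, or CuO_TTM replicate 2 or 3. The Marco call also ended with a pseudocount of 0.1 (limma adjusted p = 0.0702), a filter on mean TPM of 5 (0.0515), no filter (0.164), only the groups compared (0.146), the transcript length trend removed (0.0567) and CuO_TTM replicates 2 and 3 both left out (0.599). Csf2, which encodes the growth factor GM-CSF that macrophages need to clear surfactant, was at 3.87, 5.77 and 5.86 TPM in the controls and 10.8, 19.9 and 7.99 TPM in CuO, a difference of 1.10 with a limma adjusted p of 0.452.

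Markers of neighbouring epithelial cells were read beside the members. The 15 alveolar type 1 markers had 0 calls in each comparison and a mean deviation per library of -0.60, -0.05 and 0.36 in CuO and -0.81, 0.08 and 0.41 in CuO_TTM, low and high in the same libraries as the members. The 10 general epithelial markers deviated by -0.03, 0.49 and 0.35 in CuO and by -0.01, 0.04 and 0.28 in CuO_TTM, so that they were not low in CuO_TTM replicate 1, where the members were. The 14 transitional epithelium markers deviated by 0.27, 1.70 and 0.44 in CuO and by 0.85, 0.90 and 1.18 in CuO_TTM. Of these, Lgals3, which macrophages also express, was called in CuO_TTM against control, at 1.98 ± 0.41 (SE; limma adjusted p = 0.0459). That call of Lgals3 ended without any 1 library of either group, at limma adjusted p values of up to 0.217, and with each of the scaling alternatives. Krt8, the keratin that marks the transitional state, was at 103, 79.7 and 115 TPM in the controls, 159, 324 and 123 TPM in CuO and 214, 167 and 258 TPM in CuO_TTM, with a difference of 0.91 for CuO against control (limma adjusted p = 0.565).

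The 12 club cell markers, which stand for another source of Sftpa1, Sftpb and Sftpd, had 0 calls in each comparison and a mean deviation of 1.41, -0.66 and -0.74 in the controls, -1.73, 0.00 and -0.44 in CuO and -1.30, -3.65 and -3.31 in CuO_TTM. The libraries in which they were lowest, CuO_TTM replicates 2 and 3, held Sftpa1, Sftpb and Sftpd above the controls' means. The 3 genes deviated by 0.34, 0.08 and 0.36 in replicate 2 and by 0.65, 0.67 and 1.03 in replicate 3. The median of all tested genes deviated by 0.30 and 0.35 in the same libraries. After rescaling without Scgb1a1, CuO_TTM differed from control by -0.17 in Sftpa1 and -0.22 in Sftpb, while Sftpd did not change sign. The 12 ciliated cell markers were likewise low in CuO_TTM replicates 2 and 3, at -2.92 and -2.83, and had 0 calls in each comparison. T cell markers deviated by 2.71, 2.49 and 1.92 in CuO_TTM replicates 1, 2 and 3. By limma at an adjusted p under 0.05, 7 of these genes were higher in CuO_TTM than in control and 9 higher than in CuO. The 9 calls against CuO ended in a fit of the compared groups only, where 0 of all tested genes were called. The part of these cell type shares in the members' values was not tested.

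The genes whose levels were most like the members' were taken over the 9 libraries, by Pearson's correlation with the mean standardised level of the members. The first was Lyz2, the lysozyme gene of macrophages and of mouse type 2 cells, at 0.953. It stood at 6985, 9908 and 7035 TPM in the controls, 5557, 7255 and 16604 TPM in CuO and 2989, 11408 and 14095 TPM in CuO_TTM. Lyz2 has a near-identical copy, Lyz1, with which reads can be shared. Dip2a, Dnm1, Nacc2, Mlc1, Slc25a26, Sgk1, Ggact, Capn2 and Fgfrl1 followed, from 0.953 down to 0.937. The genes most like Sftpc were St6galnac2, Eml1 and Cpne8, at 0.962, 0.953 and 0.952. Those most like Sftpd were Stap2, Gm45714 and Tmem176a, at 0.966, 0.960 and 0.939. For Etv5 they were Phka1, Galnt4 and Egfl6, at 0.988, 0.988 and 0.987. These correlations are maxima over all tested genes and over libraries that share a scaling, and they describe likeness only.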

How the data were processed

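Lung tissue of 9 mice was profiled by stranded RNA-seq of poly(A) RNA (NovaSeq X Plus), as the labels' protocols state. The authors deposited 1 table of TPM values, a read-based abundance per transcript length, scaled to a fixed sum, for 57010 Ensembl genes. Each library sums to the same total, so depth is unknown and no counting interval is given. Per the submitters' processing notes the tools were fastp, HISAT2, RSEM and DESeq2 and the build was GRCm39; versions and settings are not given in the sources used here.

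Symbols (52029 genes) and transcript lengths came from GENCODE annotation of another build, GRCm38, so no coordinates were taken for the table's genes. The 15487 genes that reached 1 TPM in 3 or more libraries were fitted as log2(TPM + 1) with limma 3.58.1 in R 4.3.3, on group means of all 9 libraries. Variances were moderated by empirical Bayes with an abundance trend. This scale understates the change of genes with low values. Benjamini-Hochberg adjustment of limma p-values ran over all tested genes of a comparison, and intervals are at 95%. The procedure was tested on simulated data. The limma p-values set group differences against the spread between libraries of a group, each from a different mouse. This spread holds differences between mice and those of sample handling, which cannot be told apart.

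The members, lists and tests were chosen with earlier results of these data known. Named were the 10 members, up to 3 genes of smallest F test p from each of 15 other lists with the defining gene of each cell type and Nkx2-1, and the genes of highest correlation with the members. Only those bearing on the members are printed. Of the lists not described in the text, fibroblast and matrix genes had 3 calls upward and 1 downward with CuO_TTM against control. In that comparison 9 proliferation genes were called higher, 1 alveolar macrophage gene (Fabp1) lower, and 0 endothelial genes. Alternatives were other scalings, pseudocount, filters, moderation, library weights, a replicate block and leaving out libraries. Removing the transcript length trend and centring on general epithelial genes were added after seeing the data.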

Additional observations from a re-analysis of the deposited data

How the results depend on the processing

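No member was called under any alternative in CuO against control or CuO_TTM against CuO. With library weights, 3 members were called in CuO_TTM against control, Sftpd at 0.50, Napsa at 0.62 and Lpcat1 at 0.77 (limma adjusted p = 0.0446, 0.00622 and 0.0129). With the same weights, 2 were called with both exposed groups against control, Sftpd at 0.67 and Napsa at 0.68 (limma adjusted p = 0.0348 and 0.0148), and 2 by the F test, of which Napsa had a limma adjusted p of 0.0154. Of all genes, 29.5% and 43.1% were called in these comparisons. The weights ran from 0.0798 for CuO replicate 1 to 17 for CuO_TTM replicate 2, and their estimate did not converge. In all other alternatives 0 members were called. The number of all genes called depended on the setting: in CuO_TTM against control it was 294, and 56 without the filter, 122 after rescaling without Scgb1a1, 183 with a pseudocount of 0.1 and 1378 in a fit of the compared groups only. Leaving out 1 library moved it more: it was 8, 3 and 29 without control replicates 1, 2 and 3, 8 and 12 without CuO_TTM replicates 2 and 3, and 1660 without CuO replicate 1. In CuO_TTM against CuO it was 110, and 0 in a fit of the compared groups only. The count was 1 without CuO_TTM replicate 2 and 52 to 60 without CuO_TTM replicate 3, CuO replicate 1 or any 1 control. In CuO against control it was 0, and 38 with the transcript length trend removed and 35 without CuO replicate 1. Correlations of the deviations from group means ran from -0.371 to 0.286 for same-numbered libraries and from -0.27 to 0.353 for differently numbered ones. With 3 libraries a group, these cannot show whether replicate numbers pair the samples. With the replicate block 0 members were called, and 3, 81 and 113 of all genes in CuO against control, CuO_TTM against CuO and CuO_TTM against control. Rescaling without Scgb1a1 moved the median difference of all genes in CuO_TTM against control from 0.24 to 0.01. Over members, comparisons and settings outside the runs that leave out 1 library, 49 values changed sign from the main fit and 404 did not. None of the 49 passed the threshold. A further 6 values did pass it, all with library weights. The cause of the changes of sign was not tested. Under quantile normalization, where Sftpc takes only the value of its rank, the reversed differences were Sftpb -0.018, Sftpc 0.84 and Lamp3 -0.10 for CuO_TTM against CuO and Sftpa1 -0.18, Sftpb -0.32, Sftpc 0.84, Sftpd -0.052 and Etv5 -0.11 for CuO_TTM against control. Under median-ratio scaling these were Sftpb -0.089 and Lamp3 -0.16 for CuO_TTM against CuO and Sftpa1 -0.15, Sftpb -0.20 and Etv5 -0.041 for CuO_TTM against control. After rescaling without Scgb1a1 these were Sftpc -0.057 for CuO against control, Lamp3 -0.039 for CuO_TTM against CuO and Sftpa1 -0.17, Sftpb -0.22 and Etv5 -0.055 for CuO_TTM against control. With library weights these were Sftpb 0.11, Sftpc -0.094, Abca3 0.13, Lamp3 0.28, Slc34a2 0.10 and Etv5 0.33 for CuO against control, Sftpa1 0.14, Sftpc 0.046, Abca3 -0.21 and Etv5 -0.014 for CuO_TTM against CuO and Lamp3 0.61 and Slc34a2 0.16 for CuO_TTM against control. Without CuO_TTM replicates 2 and 3 together these were Sftpb -0.51, Abca3 -0.21, Lamp3 -1.31, Slc34a2 -0.97, Etv5 -0.44 and Lpcat1 -0.69 for CuO_TTM against CuO and Sftpa1 -0.68, Sftpb -0.60, Sftpd -0.30, Etv5 -0.59 and Lpcat1 -0.31 for CuO_TTM against control. With the transcript length trend removed these were Sftpc -0.081 for CuO against control, Sftpb -0.022 and Lamp3 -0.14 for CuO_TTM against CuO and Sftpa1 -0.15 and Sftpb -0.26 for CuO_TTM against control. Relative to the general epithelial genes these were Sftpc -0.16 for CuO against control, Napsa 0.055 for CuO_TTM against CuO and Sftpb -0.0497 for CuO_TTM against control.

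Leaving out 1 library at a time, the differences of CuO from control that changed sign ran from -1.18 to 0.17 for Abca3, -0.56 to 0.35 for Etv5, -0.36 to 0.37 for Lamp3, -0.21 to 0.0553 for Sftpb and -0.21 to 0.51 for Sftpc. Those of CuO_TTM from control ran from -0.43 to 0.30 for Abca3, -0.11 to 0.61 for Etv5, -0.37 to 0.67 for Lamp3, -0.17 to 0.50 for Sftpa1, -0.26 to 0.38 for Sftpb, -0.67 to 0.21 for Sftpc and -0.59 to 0.46 for Slc34a2. Those of CuO_TTM from CuO ran from -0.25 to 1.10 for Abca3, -0.14 to 0.77 for Etv5, -0.39 to 0.76 for Lamp3, -0.062 to 0.71 for Lpcat1, -0.34 to 0.15 for Napsa, -0.51 to 0.15 for Sftpa1, -0.17 to 0.46 for Sftpb, -0.82 to 0.10 for Sftpc, -0.66 to 0.0045 for Sftpd and -0.22 to 0.83 for Slc34a2. Of the log2 ratios, Sftpb to Sftpc ran from -0.61 to 0.27 for CuO against control and from -0.046 to 0.33 with both exposed groups against control, and Sftpd to Sftpc from -0.25 to 0.49 for CuO_TTM against CuO. TPM keep no depth, so counting error is unknown, and 3 mice a group limit what can be detected.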

Other observations

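Of the genes named from the lists, Pgc and Igfbp2 had every CuO library above both other groups, and Ear1 had every CuO library below both. The share of all tested genes with such a pattern was not counted. Pgc, a pepsinogen that type 2 cells make and that takes part in SP-B processing, was at 1.35, 0.88 and 1.90 TPM in the controls, 4.09, 2.69 and 4.24 TPM in CuO, and 1.17, 0.95 and 2.05 TPM in CuO_TTM. CuO differed from control by 0.98 and CuO_TTM from CuO by -0.98, with limma adjusted p = 0.333 and 0.242. Igfbp2, a marker of mature alveolar type 1 cells in mice, differed by 1.13 and -1.19 in the same comparisons, with limma adjusted p = 0.384 and 0.245. Ear1, a ribonuclease gene of mouse alveolar macrophages whose family members can share reads, went the other way, at 24.9, 124 and 48.0 TPM in the controls, 0.23, 2.12 and 3.20 TPM in CuO, and 5.13, 10.8 and 21.3 TPM in CuO_TTM. Its limma adjusted p was 0.0384 by the F test, 0.133 between CuO and control and 0.292 between CuO_TTM and CuO. The 3 genes were named by the smallest F test p of their lists, so these values are a description of selected genes, and the comparisons share the CuO libraries.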
